A study of Mus musculus with 24 samples.

Results

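TGFB1, the secreted cytokine transforming growth factor beta 1, was given to mouse ovarian surface epithelial (mOSE) cells before they were moved into suspension, and the spheroids that formed are compared here with spheroids of untreated cells. The comparison rests on 6 of the 24 libraries of the series, 3 per group, picked by their column names in the deposited table; all genes of that table were used. Both groups are the line m1102, grown in alpha-MEM with fetal bovine serum, an insulin, transferrin and selenium supplement and EGF, and then on ultra-low-attachment plates. One group had first received 10 ng/mL TGFB1 for 4 days, the other no TGFB1. How long the cells stayed in suspension, and whether TGFB1 was present then, is not given in the sources used here. A further 6 libraries of the line, 3 untreated monolayers and 3 given the same dose of TGFB1 for a time not given in the sources used here, share the fit and serve as the reference for what differs between the cultures. Their titles mark them as re-analysed, so the 2 cultures also differ in where their libraries came from and these cannot be told apart. For untreated monolayers 1 and 2 the labels cite a single earlier sample. All results concern 1 cell line, and since no label states that replicate libraries came from separate cultures, the p-values reflect the spread between the libraries, which may be technical.

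The ovarian surface epithelium is the single layer of coelomic origin that covers the ovary and is torn and repaired at ovulation. TGF-beta binds a pair of serine-threonine kinase receptors, TGFBR2 and TGFBR1, which phosphorylate SMAD2 and SMAD3. These join SMAD4 and switch genes on or off in the nucleus. In epithelia the pathway is known for matrix production, for slowing division and for epithelial-mesenchymal transition, and it raises its own inhibitors, among them SMAD7 and SKIL.

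Levels are scaled TPM, the deposited TPM (transcript abundance per length and per library) after a further factor per library, and are comparable per transcript length between genes. The test was limma on log2(scaled TPM + 1) over 13509 genes, "called" stands for an adjusted p under 0.05 (Benjamini-Hochberg), and every difference below is TGFB1 minus untreated on that log2 scale, ± its standard error. Column sums were 955433 to 959545 in untreated and 1020096 to 1166749 in TGFB1 spheroids; read depth is unknown. The 20 most abundant genes held 13.5 to 15.7% of the signal in untreated and 22.5 to 26.5% in TGFB1 spheroids, mitochondrially encoded genes 7.80 to 8.68% and 7.24 to 13.9%, and ribosomal protein genes 10.3 to 11.4% and 7.59 to 9.02%. Untreated library 3 and TGFB1 library 1 stood apart from the other libraries of their groups, with quality weights of 0.19 and 0.24, where the other spheroid libraries had 0.53 to 1.93. Among genes called lower, TGFB1 library 3 was the one nearest to the untreated group for 71.1% of genes, and untreated library 3 was the lowest of its group for 41.7%. For genes called higher, TGFB1 library 3 was also most often the nearest, at 59.5%, against 35.9% for library 1 and 4.6% for library 2. Untreated library 3 was the highest of its group for 42.3% of these. In bulk RNA, fewer cells of a kind and less RNA per cell cannot be told apart.

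Pretreatment changed a large share of the transcriptome of the spheroids. Of the 13509 genes, 2544 (18.8%) were called higher and 2266 (16.8%) lower after TGFB1, and 43.9% of all tested genes had 3 and 3 libraries that did not overlap. Changes of at least 2-fold were 794 (5.88%) higher and 725 (5.37%) lower. The median over all tested genes was 0.00, and the medians of gene lists below are set against it. Scaling every library to the same sum moved that median to -0.16 and the share of calls that were higher from 52.9% to 29.8%, since the TGFB1 columns have the larger sums; 1592 genes were then called higher and 3746 lower. Without untreated library 3, 4894 genes were called, and without TGFB1 library 1, 4676. The count fell to 3295 without TGFB1 library 2 and to 2769 with the 6 spheroid libraries alone. That fit estimates the spread of each gene from fewer samples and without the monolayers. Mean correlations of a library with the others of its group were 0.9673 to 0.9805 in spheroids and 0.9836 to 0.9927 in monolayers. The spread shared with monolayers, and with it the p-values, may therefore be too small for spheroids. Which of these lowered the count was not tested.

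**Figure D1:**
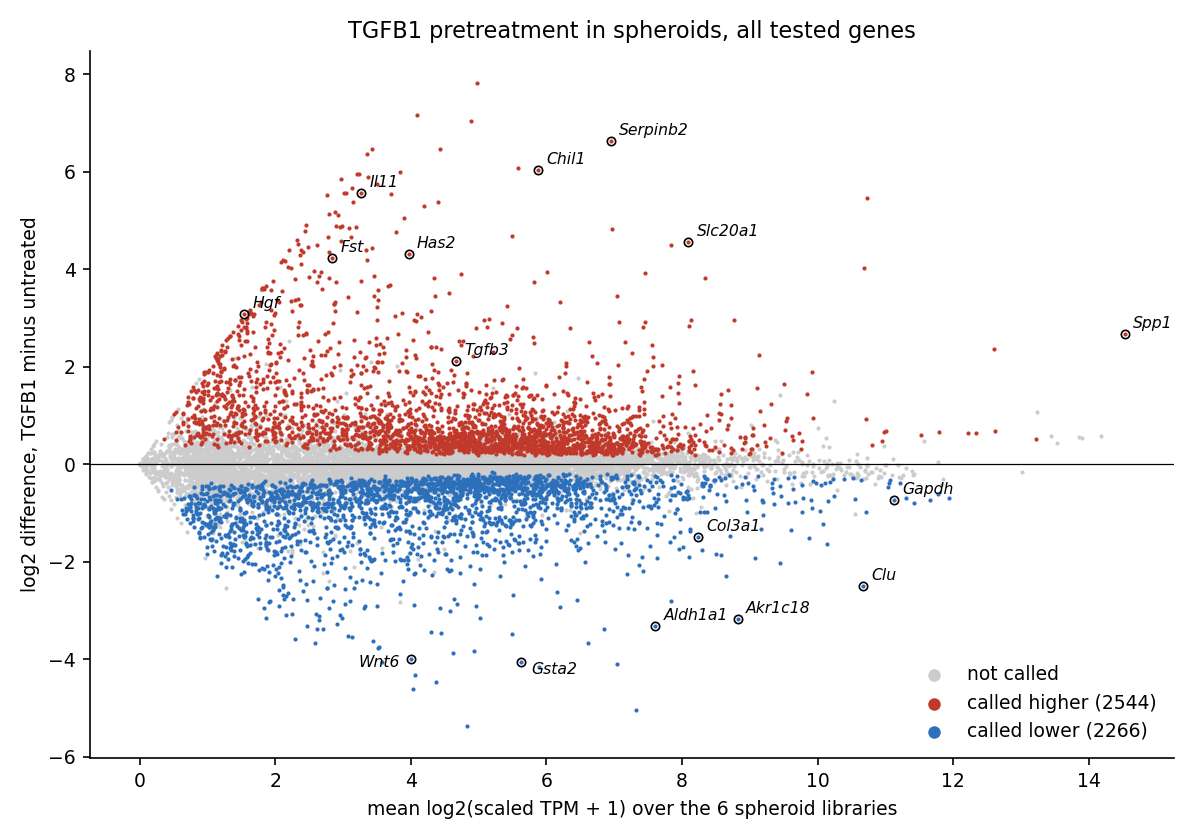
Each point is 1 of the tested genes, with its mean log2(scaled TPM + 1) over the 6 spheroid libraries on the x axis and its log2 difference, TGFB1 minus untreated, on the y axis. Coloured points were called at an adjusted p under 0.05 (2544 higher, 2266 lower), and labels mark genes described in the text, from Serpinb2 at 6.63 to Gsta2 at -4.05.

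Among the ligands of the TGF-beta family and the proteins that keep them latent, 7 of 12 tested were called higher and 1 lower (median 0.95). Tgfb3, the ligand TGF-beta 3, read 8.08, 9.01 and 18.7 in untreated and 69.6, 53.5 and 37.0 in TGFB1 spheroids, a difference of 2.12 ± 0.28 (adjusted p = 3.0e-04). No TGFB1 library overlapped the untreated ones. Ltbp1, a latency protein that stores TGF-beta in the matrix, was higher by 1.35 ± 0.26 but stayed under 5 scaled TPM in every spheroid. Receptors went the other way for several members, with 4 called higher and 5 lower of 12. Tgfbr3, the co-receptor betaglycan that presents TGF-beta 2 and binds inhibin, fell from 70.6, 64.5 and 56.5 to 8.996, 2.28 and 25.7 (-2.75 ± 0.59, adjusted p = 0.0048). The signalling receptor Tgfbr1 fell from 109, 107 and 189.8 to 79.9, 66.7 and 77.0 (-0.80 ± 0.18), a call lost with the 6 spheroid libraries alone (adjusted p = 0.057), and Tgfbr2 was not called (-0.31 ± 0.26, adjusted p = 0.38). Acvr1, a type I receptor for activin and BMP ligands also known as ALK2, rose from 26.5, 23.2 and 31.1 to 80.3, 84.9 and 58.5 (1.43 ± 0.17, adjusted p = 1.6e-04), and its 2 groups lay well apart.

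SMADs and their regulators had 11 members called higher and 4 lower of 20 (median 0.44). The co-repressor Ski rose from 21.3, 18.8 and 24.7 to 71.5, 58.2 and 43.8 (1.36 ± 0.18, adjusted p = 3.2e-04), and its relative Skil, the inhibitory Smad7, the ubiquitin ligases Smurf1 and Smurf2 and the co-repressor Tgif1 were higher by 0.66, 0.65, 0.49, 0.66 and 0.88. All 6 of these inhibitors were called higher, but 2 calls were fragile. That of Skil was lost under equal column sums (adjusted p = 0.062) and with the 6 spheroid libraries alone (0.070), and that of Smurf1 was lost under equal column sums (adjusted p = 0.068), with the 6 spheroid libraries alone (0.071), without untreated library 3 (0.056) and without TGFB1 library 2 (0.079). The signal transducer Smad3 fell, from 30.0, 29.1 and 25.6 to 7.88, 17.7 and 22.4 (-0.89 ± 0.27, adjusted p = 0.027), a call lost without the filter on low values (adjusted p = 0.057), with the 6 spheroid libraries alone (0.12), without untreated library 1 (0.074) and without untreated library 2 (0.069), and TGFB1 library 3 came close to the lowest untreated value. Smad2 and Smad4 were not called, at -0.06 and 0.23, though Smad4 was without TGFB1 library 1 (0.30, adjusted p = 0.023) and Smad2 was called lower under equal column sums (-0.24, adjusted p = 0.014). Smad1, which carries BMP signals, rose by 0.84 ± 0.16, while its paralogue Smad5 fell by 0.36 ± 0.08.

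Activin, inhibin and follistatin genes split by subunit. The beta A subunit Inhba had values of 29.0, 23.6 and 16.7 in untreated and 201, 2029.8 and 718 in TGFB1 spheroids, a wide range within the treated group. Inha, the alpha subunit that makes inhibin, fell from 39.4, 42.3 and 35.1 to 7.19, 6.65 and 16.3 (-1.96 ± 0.27, adjusted p = 3.8e-04) and the beta B subunit Inhbb from 28.3, 30.0 and 41.8 to 5.93, 2.29 and 10.6 (-2.40 ± 0.34, adjusted p = 5.0e-04). Fst, the follistatin that binds and blocks activin, rose from 0.247, 0.0404 and 2.47 to 24.97, 36.6 and 29.1 (4.22 ± 0.36, adjusted p = 1.6e-05), and was at or near absence in 2 of the 3 untreated libraries. In all, 3 members were called higher and 4 lower of 10.

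BMP ligands, their antagonists and the Id genes they induce had 11 members called higher and 4 lower of 16 (median 1.01). Bmp5 rose from 0.0310, 0.0267 and 0.0292 to 3.49, 4.57 and 4.37 (2.32 ± 0.14, adjusted p = 1.3e-06) and Bmp4 from 1.12, 1.46 and 8.73 to 13.7, 37.2 and 16.9 (2.54 ± 0.57). Bmp5 was close to 0 in every untreated spheroid. Id1, an inhibitor of basic helix-loop-helix factors and a direct BMP target, read 77.3, 75.1 and 142 in untreated and 423, 284 and 271 in TGFB1 spheroids (1.76 ± 0.29, adjusted p = 0.0011), and Id3 and Id4 were higher by 2.08 ± 0.38 and 1.32 ± 0.30. Id2 was not called (0.48 ± 0.36). The ligands Gdf6 and Gdf11 fell (-1.37 ± 0.29 and -1.14 ± 0.23).

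Of 26 widely used TGF-beta and SMAD target genes, 11 were called higher and 2 lower (median 0.65). Ctgf, the matrix-associated connective tissue growth factor, read 53.8, 56.8 and 7.24 in untreated and 42.9, 214 and 137 in TGFB1 spheroids and was not called (1.88 ± 0.78, adjusted p = 0.082). TGFB1 library 1 lay inside the untreated range. Without it the gene was called, at 2.54, adjusted p = 0.031. In monolayers it was called higher, at 2.70 ± 0.78, but the difference between the cultures was not called (adjusted p = 0.66). Pmepa1, a transmembrane inhibitor of SMAD2 and SMAD3 that the pathway induces, rose in both cultures, by 3.46 ± 0.23 in spheroids and 1.75 ± 0.23 in monolayers.

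Several genes of the interleukin 6 family rose. These cytokines signal through the shared receptor chain gp130 and STAT3. Il11 (GRCm38 chromosome 7, 4772373 to 4782859), the family member tied to fibroblast activation, rose from 0.251, 0.359 and 0.623 to 104, 69.1 and 38.3 (5.56 ± 0.31, adjusted p = 6.7e-07), and Il6 from 0.967, 2.07 and 5.01 to 25.6, 47.0 and 37.0 (3.46 ± 0.62, adjusted p = 0.0018). No untreated library reached the lowest treated value of either. Osmr, the oncostatin M receptor chain, rose from 17.8, 20.5 and 24.5 to 57.2, 53.3 and 42.0 (1.24 ± 0.17), and Il11ra1, the IL-11 receptor, by 0.42 ± 0.11, a call lost under equal column sums (adjusted p = 0.15), with the 6 spheroid libraries alone (0.079) and without TGFB1 library 2 (0.057). Il6ra, the chain that binds IL-6 itself, fell from 14.6, 12.4 and 10.8 to 6.64, 5.81 and 8.08 (-0.79 ± 0.15, adjusted p = 0.0026). Il6st, which encodes gp130, was not called at 0.03 ± 0.11, nor was the STAT3 feedback gene Socs3 at 0.13 ± 0.22. Lif was divided: TGFB1 libraries 2 and 3 read 47.7 and 41.3, but library 1 read 6.08, below the untreated 7.84, 11.4 and 8.21, and the gene was not called (adjusted p = 0.10). Without that library it was, at 2.18, adjusted p = 5.8e-05.

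Over all interleukins, cytokines and their receptors, 12 of 29 tested were called higher and 2 lower (median 0.40). Il1a, an alarmin cytokine, rose from 1.997, 2.04 and 0.503 to 10.4, 105 and 67.1 (4.18 ± 0.64, adjusted p = 7.3e-04), and its receptor Il1r1 from 18.9, 18.9 and 26.5 to 64.9, 48.5 and 32.8 (1.11 ± 0.21). TGFB1 library 1 again held the lowest treated value for Il1a. The IL-17 receptor chain Il17ra rose from 26.9, 24.3 and 19.1 to 100.1, 111 and 76.4 (1.98 ± 0.15, adjusted p = 6.3e-06), without overlap. Kitl, the stem cell factor that granulosa cells send to oocytes, fell from 28.1, 28.5 and 29.4 to 4.93, 6.89 and 14.3 (-1.73 ± 0.29, adjusted p = 0.0012). In the monolayers, 2 of the list were called higher and 7 lower. By limma's interaction test the signed TGFB1 effect was higher in spheroids than in monolayers for 11 of 29 and lower for 0. The shares of all tested genes were 8.72% and 7.11%. At an unadjusted p under 0.05, 2 of the list had a lower signed effect in spheroids. The sign does not give the size of an effect. Il11ra1, called higher by this test, had 0.42 in spheroids and -0.42 in monolayers.

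**Figure D2:**
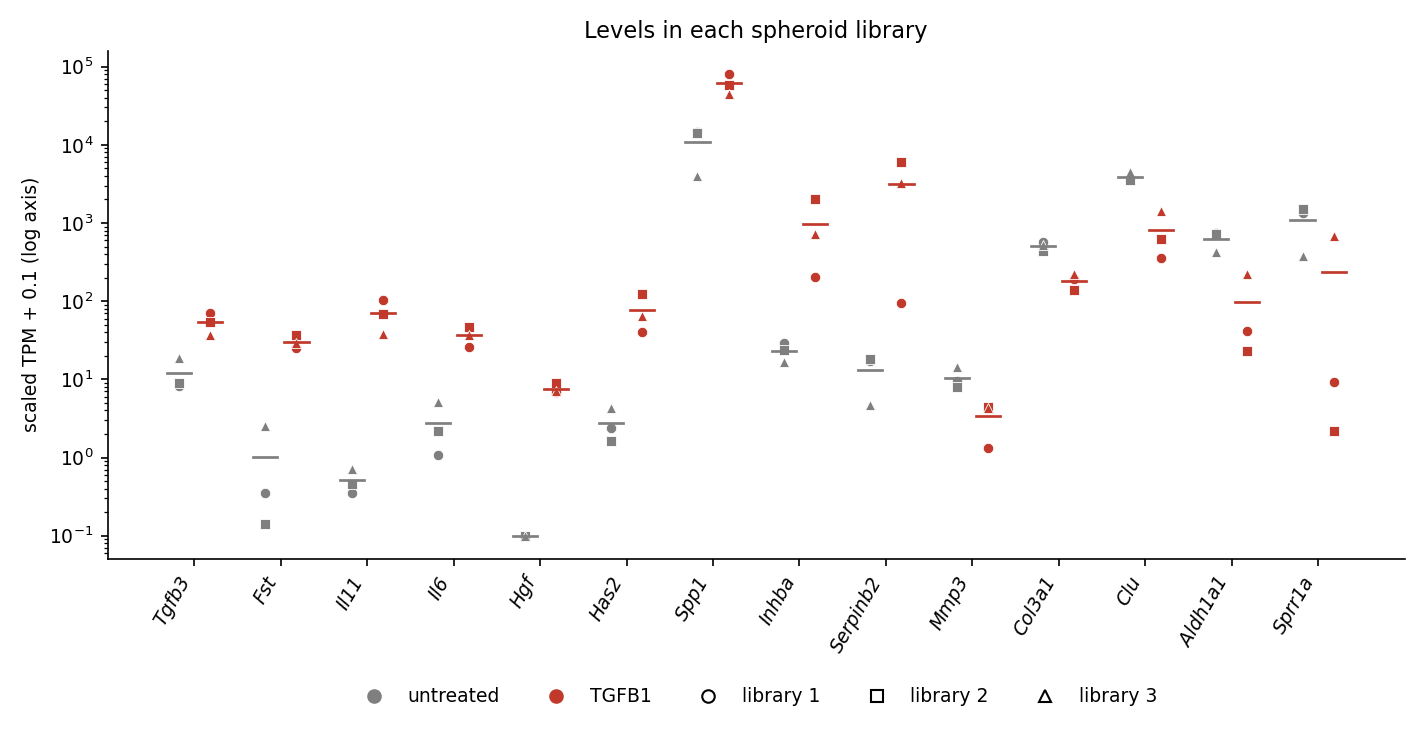
Each point is 1 spheroid library, untreated in grey and TGFB1 in colour, with scaled TPM plus 0.1 on a log axis and 1 column per gene, and horizontal bars mark group means. Il11, Hgf and Has2 show groups that do not overlap, Serpinb2 and Inhba a treated library 1 far below libraries 2 and 3, and Aldh1a1 and Sprr1a a treated library 3 near the untreated ones.

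Growth factors for receptor tyrosine kinases rose in several families. Hbegf, a ligand of the EGF receptor, went from 16.4, 17.04 and 12.8 to 319.9, 279.6 and 177 (3.95 ± 0.31, adjusted p = 9.9e-06), and a second ligand, Btc, from 27.9, 24.1 and 39.5 to 477, 166 and 119.8 (2.79 ± 0.39, adjusted p = 4.5e-04). Tgfa, a further ligand, fell from 51.3, 48.4 and 44.0 to 20.4, 18.3 and 27.2 (-1.11 ± 0.13, adjusted p = 1.9e-04). The EGF family thus did not move as one, with 3 called higher and 2 lower of 12 (25% and 16.7%, against 18.8% and 16.8% of all tested genes). Egfr itself was not called (0.25 ± 0.15) except without TGFB1 library 1 (0.41, adjusted p = 0.044). In the FGF, PDGF, VEGF and HGF families, 12 of 29 were called higher and 4 lower. Hgf, the ligand of MET, was listed at 0 in all 3 untreated spheroids and at 6.73, 8.89 and 6.95 in the TGFB1 spheroids (adjusted p = 1.7e-07), while its receptor Met fell from 20.6, 19.9 and 23.4 to 5.91, 9.71 and 11.96 (-1.18 ± 0.21, adjusted p = 0.0017). Pdgfa rose from 93.2, 85.5 and 64.8 to 443, 521 and 366 (2.44 ± 0.29), and Fgf2 from 147, 159 and 194 to 931, 477 and 308 (1.63 ± 0.32). The semaphorin and VEGF co-receptors Nrp1 and Nrp2 fell (-1.19 ± 0.31 and -1.76 ± 0.31), the first a call lost with the 6 spheroid libraries alone (adjusted p = 0.058) and without TGFB1 library 2 (0.058). Angptl2, a secreted angiopoietin-like protein, rose from 0.389, 0.365 and 0.348 to 45.2, 43.1 and 30.9 (4.88 ± 0.16, adjusted p = 2.0e-08). It was under 1 scaled TPM in all untreated spheroids.

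Feedback regulators of ERK split by type. The nuclear phosphatases Dusp2, Dusp4 and Dusp5 and the cytosolic Dusp6 were higher by 2.65 ± 0.56, 1.63 ± 0.29, 0.91 ± 0.17 and 1.25 ± 0.19. Dusp6, the most abundant, read 137, 130.2 and 227 in untreated and 425, 399 and 326 in TGFB1 spheroids, without overlap. Spry1 and Spry2, the Sprouty inhibitors upstream of RAS, fell (-1.62 ± 0.30 and -0.70 ± 0.15), and Spry4 was not called (0.00 ± 0.18). Altogether 7 of 15 were called higher and 3 lower.

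Matrix genes did not rise as a group. Of 25 collagen chains, 8 were called higher and 7 lower (median -0.18). Col5a1, a chain of the fibril-nucleating type V collagen, rose from 4.63, 5.01 and 7.60 to 59.8, 70.7 and 44.7 (3.14 ± 0.24, adjusted p = 7.3e-06), Col27a1 from 2.13, 2.96 and 2.98 to 14.6, 15.5 and 11.2 (1.995 ± 0.15) and the transmembrane Col23a1 from 0.165, 0 and 0.150 to 4.63, 14.2 and 8.51 (3.08 ± 0.29). Col3a1, the abundant type III chain, fell from 568, 438 and 519 to 189, 139 and 220.0 (-1.49 ± 0.17, adjusted p = 1.1e-04). Chains of basement membrane and microfibrillar collagens fell as well, Col4a5 (-1.09 ± 0.15), Col15a1 (-2.24 ± 0.47), Col6a1 (-2.94 ± 0.50) and Col4a1 (-0.81 ± 0.19), the last a call lost with the 6 spheroid libraries alone (adjusted p = 0.050). Col1a1 was higher in spheroids (2.30 ± 0.18) at only 7.68, 7.84 and 6.28 scaled TPM, against 214, 136 and 123 in TGFB1 monolayers, and its partner Col1a2 was not called (0.05 ± 0.33). The enzymes that finish collagen had 7 called higher and 5 lower of 25 (28% and 20%, against 18.8% and 16.8% of all tested genes). Pcolce, an enhancer of procollagen cleavage, fell from 463, 418 and 462 to 177, 130.2 and 221 (-1.37 ± 0.15, adjusted p = 8.3e-05), as did the prolyl hydroxylase P4ha1 (-0.72 ± 0.15) and Crtap, a partner in prolyl hydroxylation (-0.79 ± 0.16), while Loxl1, a crosslinking amine oxidase, rose by 1.13 ± 0.14.

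The secretory route that carries collagen was more uniform, with 17 of 31 members called higher and 1 lower (median 0.38), and 12 higher under equal column sums. Kdelr3, a receptor that returns escaped proteins to the endoplasmic reticulum, rose from 3.10, 3.05 and 2.45 to 9.41, 23.6 and 14.1 (2.03 ± 0.33, adjusted p = 0.0011), and the translocon subunit Sec61b and the COPII coat subunit Sec24d by 0.69 ± 0.13 and 0.83 ± 0.14. ER chaperones did not share this: 0 were called higher and 4 lower of 20 by limma, with 2 higher at an unadjusted p under 0.05. Their share of lower calls was near the 16.8% of all tested genes. In the TGFB1 monolayers 15 were called higher, against 9.12% of all tested genes. The interaction test called 8 of these chaperones as having a lower signed effect in spheroids than in monolayers, against 7.11% of all tested genes.

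Hyaluronan, the large glycosaminoglycan of loose matrix, is made by synthases at the cell surface. Has2, the main synthase of mesenchymal cells, rose from 2.30, 1.54 and 4.22 to 40.2, 124 and 64.1 (4.30 ± 0.38, adjusted p = 2.4e-05), and its receptor Cd44 from 29.7, 24.0 and 14.2 to 98.4, 198 and 132 (2.60 ± 0.47, adjusted p = 0.0019). Has3, another synthase, and Cemip, which aids hyaluronan breakdown, fell (-1.02 ± 0.16 and -1.57 ± 0.26). All 4 had non-overlapping groups, as had 43.9% of all tested genes, and Has3 was below 3 scaled TPM throughout. Of 11 hyaluronan genes tested, 5 were called higher and 3 lower, or 45.5% and 27.3%, against 18.8% and 16.8% of all tested genes. With the 6 spheroid libraries alone, 3 were called higher and 2 lower.

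Spp1 encodes osteopontin, an acidic phosphoprotein of bone matrix that binds integrins and CD44, and was the most abundant transcript of the treated spheroids. It read 14644, 14045 and 4019 in untreated and 80758, 58384 and 44499.7 in TGFB1 spheroids (2.66 ± 0.41, adjusted p = 8.1e-04), that is 0.421 to 1.53% and 4.09 to 7.92% of all signal. The call was lost under quantile normalization, which gives every library the same set of values. In the monolayers Spp1 stayed between 117 and 171. Genes of the same family and of mineralising matrix moved with it: Dmp1, dentin matrix protein 1, from 0.216, 0.189 and 0.116 to 118, 33.6 and 41.1 (5.57 ± 0.35, adjusted p = 1.8e-06), and Ibsp, bone sialoprotein, from 1.304, 0.356 and 0.106 to 6.39, 21.6 and 22.2 (3.38 ± 0.40, adjusted p = 1.6e-04). Slc20a1, a sodium-phosphate importer, was among the 15 largest rises by difference of means, from 69.8, 62.3 and 38.7 to 1669.9, 1540.1 and 900.3 (4.56 ± 0.31, adjusted p = 3.0e-06). Of the 6 tested cartilage and bone markers, 3 were called higher, and Sox9, a cartilage factor, was not called (0.33 ± 0.17) except without untreated library 3 (0.52, adjusted p = 0.017) and with library quality weights.

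Other matrix glycoproteins and proteoglycans had 12 members called higher and 7 lower of 36, and 13 higher and 4 lower without TGFB1 library 1. Crispld2 rose from 0.396, 0.282 and 0.204 to 26.6, 32.6 and 25.3 (4.49 ± 0.35, adjusted p = 9.7e-06) and Tnc, the adhesion-modulating tenascin C, from 195, 150.5 and 74.4 to 383, 538 and 291 (1.59 ± 0.33). Hspg2, the basement membrane proteoglycan perlecan, fell from 189, 164 and 178 to 81.3, 41.0 and 76.1 (-1.46 ± 0.20, adjusted p = 3.9e-04), and Tgfbi, named for its induction by TGF-beta, fell from 44.8, 37.1 and 18.9 to 4.50, 4.61 and 12.1 (-2.14 ± 0.36, adjusted p = 0.0012). Integrins, the receptors for matrix, had 7 of 18 called higher and 4 lower. The collagen-binding Itga2 rose from 0.282, 0.153 and 0.0936 to 11.1, 45.03 and 23.9 (4.36 ± 0.43, adjusted p = 4.6e-05) and Itga11 from 0.0467, 0.120 and 0.167 to 8.87, 6.38 and 3.51 (2.64 ± 0.24). The fibronectin receptor chain Itga5 and the vitronectin and osteopontin receptor chain Itgb3 were higher by 1.91 ± 0.22 and 1.73 ± 0.28, and the laminin-binding Itga6 fell from 488, 430.4 and 266 to 50.9, 110.4 and 179.8 (-1.92 ± 0.38, adjusted p = 0.0032). Another collagen-binding chain, Itga10, was called lower (-1.49 ± 0.45), a call lost without the filter on low values (adjusted p = 0.057), with the 6 spheroid libraries alone (0.12) and without TGFB1 library 2 (0.090).

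Matrix-degrading enzymes were also divided, with 10 called higher and 9 lower among 34 metalloproteinases and TIMPs, and 6 higher and 7 lower with the 6 spheroid libraries alone. A group of neighbouring secreted enzymes on chromosome 9 gives the clearest example. Their promoters are shown because Mmp10, Mmp12 and Mmp3 each hold the AP-1 motif TGANTCA in the 250 bases before the start, yet the genes did not change in the same direction. The sequences are from RefSeq on GRCm38.p6, plus strand, with the motif in capitals.
Mmp10, chr9:7502092-7502341: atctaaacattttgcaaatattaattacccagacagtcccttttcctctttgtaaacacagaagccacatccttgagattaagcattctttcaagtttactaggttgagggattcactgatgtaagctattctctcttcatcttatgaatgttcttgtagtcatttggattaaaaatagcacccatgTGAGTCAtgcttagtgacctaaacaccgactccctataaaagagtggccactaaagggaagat
Mmp12, chr9:7347124-7347373: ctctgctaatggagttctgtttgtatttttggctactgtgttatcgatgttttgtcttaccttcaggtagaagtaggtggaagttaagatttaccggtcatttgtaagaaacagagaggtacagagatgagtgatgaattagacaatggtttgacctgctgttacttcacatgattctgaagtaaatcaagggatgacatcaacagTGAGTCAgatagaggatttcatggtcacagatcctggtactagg
Mmp3, chr9:7445572-7445821: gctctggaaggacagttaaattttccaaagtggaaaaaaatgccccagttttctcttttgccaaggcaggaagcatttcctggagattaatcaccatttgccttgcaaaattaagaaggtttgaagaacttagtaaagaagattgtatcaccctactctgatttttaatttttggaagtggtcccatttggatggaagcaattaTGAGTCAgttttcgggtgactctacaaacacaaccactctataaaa
Each has 1 match, which ends 56, 37 and 39 bases before the start in this order, and Mmp12 has a second listed start without a match. Mmp10, stromelysin 2, rose from 3.34, 2.497 and 0.846 to 8.57, 24.4 and 13.5 (2.33 ± 0.36, adjusted p = 7.7e-04), and Mmp12, macrophage elastase, from 3.75, 3.28 and 0.801 to 5.05, 12.9 and 8.54 (1.49 ± 0.37, adjusted p = 0.0097), a call lost with the 6 spheroid libraries alone (adjusted p = 0.068). Mmp3, stromelysin 1, fell from 9.32, 7.78 and 14.1 to 1.22, 4.37 and 4.21 (-1.49 ± 0.31, adjusted p = 0.0039). The motif, searched on both strands, stood in the promoters of 7.82% of all genes with an entry, 5.77% of tested genes, 6.80% of genes called higher and 6.80% of genes called lower, so its share did not separate the directions. Of the 21 metalloproteinase and TIMP genes with a promoter entry 5 (23.8%) held it, the others being Mmp13 and Adam19, which were not called. Outside this cluster, the membrane-anchored Mmp14 rose from 112, 89.3 and 124 to 269.8, 189.9 and 174 (0.94 ± 0.17) and the Adamts proteases Adamts6 and Adamts16 by 2.05 ± 0.23 and 2.21 ± 0.31. Mmp15, Mmp16 and Adamts7 fell (-1.43 ± 0.17, -1.96 ± 0.34 and -1.97 ± 0.35). Mmp9, gelatinase B, read 1.03, 1.13 and 0.334 against 0.479, 15.8 and 15.4 and was not called (2.05 ± 0.74, adjusted p = 0.050), but without TGFB1 library 1 it was called higher at 3.21, adjusted p = 1.5e-05.

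Serpins and plasminogen activation genes had 14 members called higher and 9 lower of 32, and 12 higher and 5 lower with the 6 spheroid libraries alone. Serpinb2, an intracellular inhibitor of urokinase also known as PAI-2, read 17.1, 17.97 and 4.64 in untreated and 94.5, 5951 and 3272 in TGFB1 spheroids (6.63 ± 1.18, adjusted p = 0.0017). All treated values exceeded the untreated ones, but libraries 2 and 3 were more than 30 times library 1. Serpine2, protease nexin 1, rose by 1.63 ± 0.14, and the urokinase receptor Plaur from 140.1, 131 and 84.9 to 214, 323 and 239 (1.13 ± 0.27). Serpina3n was also called higher (2.49 ± 0.21), with the caution that reads can be shared with its close paralogues. Serpinb11 was called lower (-3.75 ± 0.88), although TGFB1 library 3 (16.1) exceeded untreated library 3 (13.9), and the call was lost with the 6 spheroid libraries alone (adjusted p = 0.066).

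Actin, contractile and serum response factor target genes were mostly higher or not called, 19 of 33 called higher and 1 lower (median 0.46), with 14 higher under equal column sums and 9 with the 6 spheroid libraries alone. The striated-muscle isoforms gave the largest values: Tnni1, slow skeletal troponin I, went from 0.206, 0.0987 and 0.202 to 212, 52.2 and 32.2 (5.95 ± 0.50, adjusted p = 1.5e-05) and Actn3 from 0.145, 0.362 and 0.252 to 7.58, 10.1 and 4.69 (2.71 ± 0.27). The widely expressed Actn1 and Tpm2 rose by 0.77 ± 0.16 and 1.04 ± 0.17, and Cnn1, a smooth-muscle calponin, was not called and stayed under 1 scaled TPM. Junction genes gave 5 higher and 3 lower of 16 (31.2% and 18.8%, against 18.8% and 16.8% of all tested genes). Pkp1, a desmosomal plaque protein, rose from 0.0373, 0.0434 and 0.0445 to 41.6, 12.8 and 9.99 (4.16 ± 0.38, adjusted p = 2.9e-05), the mesenchymal cadherin Cdh11 from 15.3, 12.4 and 20.4 to 116, 82.9 and 55.8 (2.30 ± 0.27, adjusted p = 1.6e-04) and the plaque protein Jup by 1.10 ± 0.23. Ocln, the tight-junction protein occludin, fell from 6.86, 8.15 and 10.3 to 0.696, 1.05 and 2.65 (-1.999 ± 0.28, adjusted p = 4.8e-04). Epithelial Cdh1 was at most 0.102 in any spheroid library and was not tested. Among keratins and other intermediate filaments, Krt76 rose from 0.0787, 0.0451 and 0.0470 to 19.7, 33.9 and 18.8 (4.52 ± 0.20, adjusted p = 1.3e-07) and Vim, the mesenchymal filament vimentin, fell from 1327, 1199.7 and 2183 to 1010.1, 948 and 921 (-0.66 ± 0.19, adjusted p = 0.020), a call lost with the 6 spheroid libraries alone (adjusted p = 0.097) and without TGFB1 library 2 (0.059). Of the transcription factors of epithelial-mesenchymal transition, 3 were called higher and 2 lower of 11. These shares were 27.3% and 18.2%, against 18.8% and 16.8% of all tested genes. Both with the 6 spheroid libraries alone and without TGFB1 library 2, the list had 3 higher and 0 lower. Without untreated library 3 it had 4 higher and 1 lower, and under equal column sums 3 higher and 3 lower. The members called higher are not among those named next. Zeb2, Twist1 and Snai2 were not called (0.05, -0.08 and 0.07), and Zeb1 fell by 0.34 ± 0.12, a call lost in 11 of the 22 alternatives (adjusted p up to 0.20).

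Markers of the ovarian surface and of mesothelium, which check the labelled cell type, had 1 member called higher and 10 lower of 19 tested (median -0.47). The counts were 3 higher and 7 lower without untreated library 3 and 0 higher and 5 lower without TGFB1 library 2. Msln, the mesothelial surface protein mesothelin, fell from 39.7, 41.7 and 78.9 to 17.8, 20.8 and 27.2 (-1.20 ± 0.23, adjusted p = 0.0028) and the uroplakin Upk3b from 4.64, 4.38 and 3.36 to 0.974, 0.518 and 1.48 (-1.38 ± 0.37), the latter a call lost with a pseudocount of 5 (adjusted p = 0.18) and without TGFB1 library 2 (0.061). Krt18 was present at 81.3, 83.3 and 164 in untreated and 323, 134 and 109.7 in TGFB1 spheroids without a call (0.69 ± 0.36), though it was called higher without untreated library 3 (1.02, adjusted p = 0.043), while Krt8 was at most 0.389 and Krt7 at most 3.42, against 362, 338 and 288 in untreated monolayers. Krt8 was as low in monolayers, at 0.172, 0.178 and 0.217 in untreated and 0.248, 0.406 and 0.261 in TGFB1 libraries. Krt7 and Krt8 are keratins usual in this epithelium. Transcription factors of the gonad and coelomic epithelium were called lower for 3 of 15 and higher for 1. The lower share (20%) was near the 16.8% of all tested genes, and the higher share was 6.67% against 18.8%. Nr5a1, the steroidogenic factor 1, went from 123, 116 and 102 to 60.9, 58.6 and 77.0 (-0.79 ± 0.10, adjusted p = 2.9e-04), Gata4 from 35.8, 33.6 and 28.7 to 11.5, 15.4 and 21.9 (-1.002 ± 0.19, adjusted p = 0.0024) while Wt1, the Wilms tumour factor, was called lower at -0.47 ± 0.17, a call lost in 12 of the 22 alternatives (adjusted p up to 0.16). Foxl2, the granulosa-lineage factor, was not called (0.24 ± 0.11), except without untreated library 3 (0.32, adjusted p = 0.049) or TGFB1 library 3 (0.36, adjusted p = 0.018).

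Enzymes of steroid hormone synthesis had 8 members called higher and 12 lower of 27. The counts were 4 higher and 4 lower with the 6 spheroid libraries alone, and 5 higher and 9 lower both without TGFB1 library 1 and without TGFB1 library 2. Sult1e1, the sulfotransferase that inactivates estrogen, rose from 4.22, 4.64 and 0.189 to 171, 172 and 82.2 (5.37 ± 0.53, adjusted p = 5.0e-05). Hsd3b1, which makes progesterone from pregnenolone, read 19.5, 14.5 and 3.61 in untreated and 0, 0 and 2.53 in TGFB1 spheroids (-2.90 ± 0.56, adjusted p = 0.0025). Fdxr, the reductase that feeds electrons to mitochondrial P450 enzymes, fell from 169, 164 and 106 to 19.3, 32.0 and 61.8 (-2.05 ± 0.34, adjusted p = 0.0012), and Akr1c18, which inactivates progesterone, from 1432, 1379.7 and 1274 to 86.3, 53.5 and 714 (-3.18 ± 0.72, adjusted p = 0.0063). The fall was steep in TGFB1 libraries 1 and 2 and smaller in library 3, and the call for Akr1c18 was lost with the 6 spheroid libraries alone (adjusted p = 0.055).

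Genes of cornified epithelium, the outer barrier of skin, had 3 called higher and 2 lower of 13. These shares (23.1% and 15.4%) were near the 18.8% and 16.8% of all tested genes, so only single members are described. Lce1f and Lce1g, late cornified envelope genes, rose, Lce1f from 0.103, 0 and 0 to 97.9, 61.0 and 33.5 (5.85 ± 0.37, adjusted p = 1.8e-06) and Lce1g from 0.0754, 0 and 0 to 2.999, 30.6 and 15.8 (3.65 ± 0.55). Sbsn, suprabasin, fell from 1149, 1237 and 802 to 277, 149 and 504 (-1.92 ± 0.40, adjusted p = 0.0040). The envelope precursor Sprr1a was called lower (-5.05 ± 1.496, adjusted p = 0.023) at 1342, 1523 and 381 against 9.12, 2.11 and 687, where TGFB1 library 3 lay between the untreated values, and the call was lost in 6 of the 22 alternatives (adjusted p up to 0.11). The whole list summed to 1339 to 3189 in untreated and 754 to 1933 in TGFB1 spheroids.

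Markers of other cell types were read in the same libraries. The 26 leukocyte markers summed to 55.8 to 67.0 in untreated and 74.3 to 78.6 in TGFB1 spheroids. Of the 4 tested, 2 were called higher and 1 lower, and the defining Ptprc was at most 0.124 and Adgre1 at most 0.0139. Of 15 endothelial markers 6 were tested, with 1 called higher and 2 lower (median -0.21). The higher one was Cdh5, the endothelial cadherin, from 3.44, 1.41 and 0.668 to 51.3, 32.8 and 23.9 (3.76 ± 0.34, adjusted p = 2.4e-05). Kdr was at most 0.0436, Tek at most 0.233 and Pecam1 not called (-0.10 ± 0.21), and the sums were 19.6 to 47.9 and 42.8 to 57.1. Smooth muscle and pericyte markers had 5 called higher of 7 tested (median 1.15; 3 with the 6 spheroid libraries alone), with sums of 51.2 to 64.9 and 99.0 to 181. Cspg4, the NG2 proteoglycan, rose from 0.255, 0.132 and 0.111 to 29.4, 16.0 and 12.2 (4.03 ± 0.26, adjusted p = 2.1e-06) and Pdgfrb, the PDGF receptor beta, from 0.0107, 0 and 0.0286 to 9.47, 4.62 and 3.11 (2.62 ± 0.31, adjusted p = 1.6e-04), while Myh11 and Rgs5 were at most 0.0370 and 0.0730. Granulosa and theca markers had 7 called lower and 1 higher of 9 tested (median -1.51), against 16.8% and 18.8% of all tested genes, and 1 higher and 6 lower with the 6 spheroid libraries alone. Star, which carries cholesterol into mitochondria, read 1277, 1361 and 2259 in untreated and 632, 388 and 687 in TGFB1 spheroids (-1.51 ± 0.32, adjusted p = 0.0046), and Amhr2, the receptor for anti-Müllerian hormone, 45.7, 39.5 and 60.6 and 0.523, 0.763 and 8.31 (-4.06 ± 0.66). The defining receptors Fshr and Lhcgr were listed at 0 in every spheroid, and the list summed to 1690.0 to 2539 and 528 to 893. Stroma and fibroblast markers summed to 1123 to 1519 and 798 to 1673 with Lum listed at 0, oviduct markers to 99.0 to 115 and 73.5 to 87.6, and oocyte markers to 2.04 to 3.39 and 1.76 to 2.90. Calls were 3 higher and 3 lower of 12 tested for stroma, 1 higher and 3 lower of 8 for oviduct, and 0 of 2 for oocyte markers. What part such cells have in the results was not tested.

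Cholesterol synthesis had the largest share called lower among the lists described here. Of 26 tested members, 0 were called higher and 22 lower by limma (median -1.16), with 0 higher at an unadjusted p under 0.05, and 12 lower with the 6 spheroid libraries alone. These enzymes are driven together by SREBP2 when sterols are low. Fdps, which makes farnesyl diphosphate, read 979, 899 and 365 in untreated and 163, 114 and 377 in TGFB1 spheroids (-1.83 ± 0.44, adjusted p = 0.0083), and Lss, the lanosterol synthase, 95.8, 91.5 and 44.6 against 20.5, 13.7 and 36.5 (-1.70 ± 0.39, adjusted p = 0.0067). Untreated library 3 was the lowest of its group and TGFB1 library 3 the highest of its own for both, so that the libraries numbered 3 met or nearly met. The call for Fdps was lost with the 6 spheroid libraries alone (adjusted p = 0.061). The sterol sensor Scap and the factor Srebf2 fell (-1.13 ± 0.15 and -0.74 ± 0.13) without overlap. Dhcr7, which catalyses the last step to cholesterol, was not called (0.24 ± 0.20). Among the 19 members with a promoter entry, the SREBP element TCACNCCAC stood in 1, Hmgcs1, against 1.22% of all genes, and that sequence is shown with the element in capitals (GRCm38.p6, plus strand).
Hmgcs1, chr13:119690101-119690350: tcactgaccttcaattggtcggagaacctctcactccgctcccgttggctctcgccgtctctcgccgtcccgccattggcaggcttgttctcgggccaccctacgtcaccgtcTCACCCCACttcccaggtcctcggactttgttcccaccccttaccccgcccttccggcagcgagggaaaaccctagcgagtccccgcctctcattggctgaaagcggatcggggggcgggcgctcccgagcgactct
The match ends 128 bases before the start. No match in the other members says only that these letters are not in this window.

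Glycolysis and the hypoxia response fell in part. Of 19 glycolysis genes 11 were called lower and 3 higher (median -0.69). Ldha, lactate dehydrogenase A, went from 1295, 1333 and 1327 to 751, 515 and 919 (-0.89 ± 0.17, adjusted p = 0.0024), Gapdh from 2796, 2861 and 2993 to 1561, 1571 and 2085 (-0.74 ± 0.13) and Pkm from 3055, 3130.1 and 3509.7 to 2191, 1702 and 2125 (-0.69 ± 0.12). Pfkfb3, which makes the activator of phosphofructokinase, and the glucose transporter Slc2a1 rose instead, by 1.32 ± 0.18 and 0.64 ± 0.13. Of 22 hypoxia response genes 11 were called lower and 6 higher. The oxidase Ero1l fell from 1054, 1225 and 549 to 114, 107 and 486 (-2.30 ± 0.49, adjusted p = 0.0043), as did the kinase Pdk1 (-1.47 ± 0.23) and the mitophagy receptor Bnip3 (-1.38 ± 0.22). Egln3, a prolyl hydroxylase that marks HIF for degradation, rose from 1.64, 1.32 and 2.30 to 14.2, 14.4 and 7.91 (2.23 ± 0.23, adjusted p = 5.6e-05), and Vegfa was called higher by 1.05 ± 0.30 with TGFB1 library 1 inside the untreated range, a call lost with the 6 spheroid libraries alone (adjusted p = 0.099), without untreated library 3 (0.064) and without TGFB1 library 2 (0.072).

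**Figure D3:**
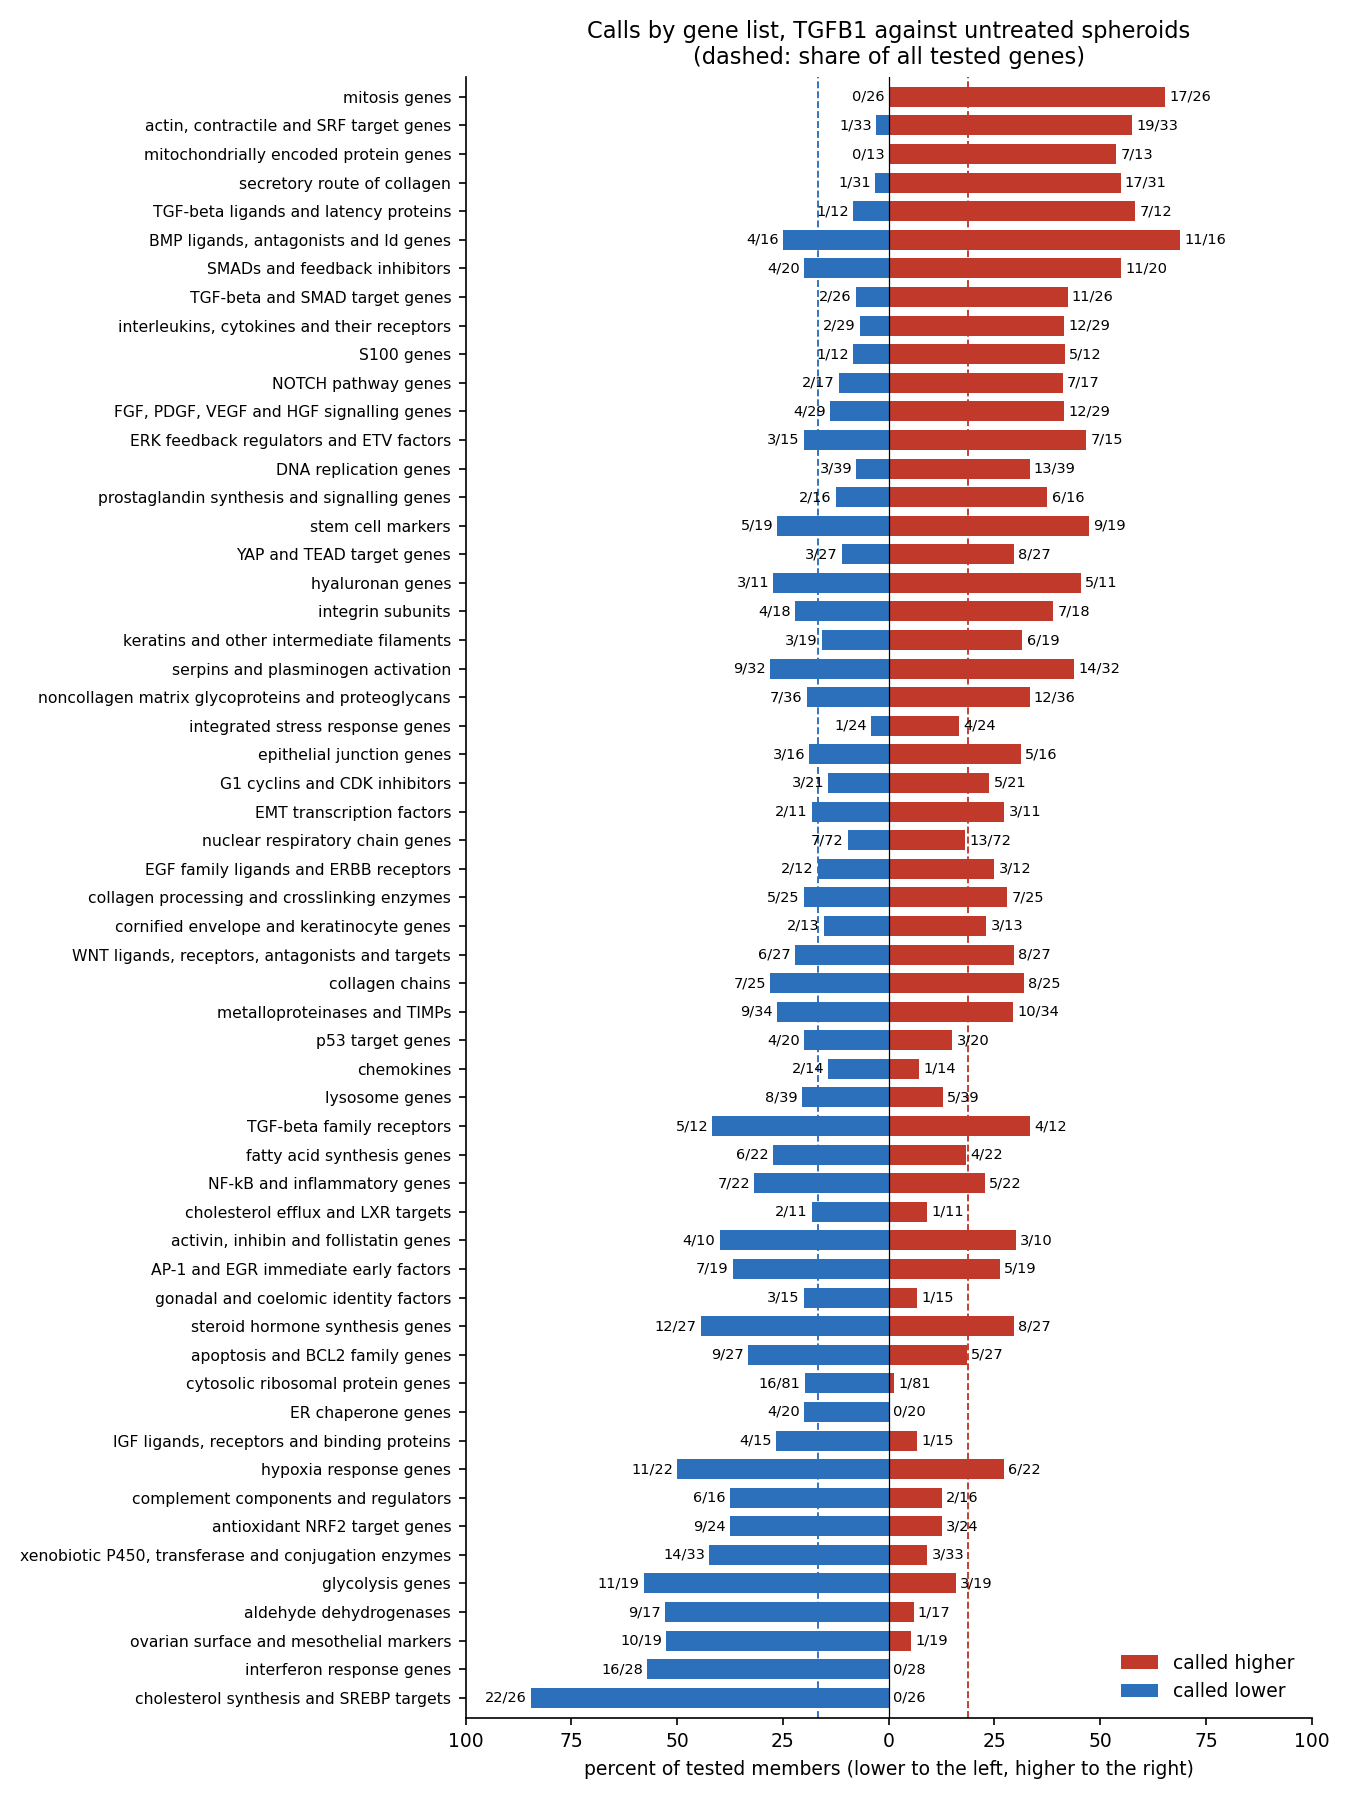
Bars give the percent of tested members of each gene list called higher (right) and lower (left) in TGFB1 against untreated spheroids, with the numbers of members at the bar ends, and dashed lines mark the share of all tested genes called in each direction (18.8% higher, 16.8% lower). Marker lists of other cell types are not drawn. Mitosis, secretory route and actin genes lie mostly to the right, cholesterol synthesis, glycolysis and interferon response genes to the left.

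Aldehyde dehydrogenases, whose activity is used as a mark of stem-like cells, had 9 of 17 called lower and 1 higher (median -0.48), and 5 lower with the 6 spheroid libraries alone. Aldh1a1 (GRCm38 chromosome 19, 20492715 to 20643465), a retinal dehydrogenase, went from 744, 721 and 426 to 42.0, 22.9 and 225 (-3.32 ± 0.62, adjusted p = 0.0022), and Aldh2 from 439.7, 407 and 502 to 192, 226 and 268 (-0.98 ± 0.12, adjusted p = 2.2e-04). The exception was Aldh1a3, called higher at 2.02 ± 0.67 with 1.11, 0.697 and 0.297 against 0.681, 19.2 and 8.10, a call lost in 12 of the 22 alternatives (adjusted p up to 0.14), and without separation of the groups. Ly6a, the stem cell antigen Sca-1, was at or under 2.04 in all spheroids with a difference of -1.03 ± 0.28, a call lost without untreated library 1 (adjusted p = 0.061) and without TGFB1 library 2 (0.069), and Lgr5 and Prom1 stayed under 1. Conjugating and xenobiotic enzymes had 14 called lower and 3 higher of 33 (median -0.88). The counts were 3 higher and 10 lower without TGFB1 library 1 and 2 higher and 9 lower with the 6 spheroid libraries alone. The glutathione transferase Gstm1 fell from 373, 334 and 336 to 10.5, 17.1 and 99.4 (-3.66 ± 0.60, adjusted p = 0.0011) and the epoxide hydrolase Ephx1 from 266, 279.9 and 298 to 58.4, 56.9 and 135 (-1.86 ± 0.31, adjusted p = 0.0012). Gsta2 was called lower (-4.05 ± 1.09, adjusted p = 0.015) though TGFB1 library 3 (85.2) exceeded untreated library 3 (64.9), a call lost with the 6 spheroid libraries alone (adjusted p = 0.092), without untreated library 1 (0.054) and without untreated library 2 (0.053). Idh1, a cytosolic source of NADPH, fell from 1273, 1298 and 1698 to 351, 165 and 698 (-2.03 ± 0.38, adjusted p = 0.0022), and Slc7a11, the cystine importer, rose from 14.04, 14.3 and 4.77 to 48.2, 36.9 and 34.8 (1.88 ± 0.31, adjusted p = 0.0012).

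Nuclear-encoded subunits of the respiratory chain had 13 called higher and 7 lower of 72 in spheroids (median 0.09), and 3 higher and 22 lower under equal column sums. The shares of 18.1% higher and 9.72% lower compare with 18.8% and 16.8% of all tested genes, so the higher share was near the background. The counts were 21 higher and 6 lower without TGFB1 library 1 and 6 higher and 5 lower without TGFB1 library 2. In monolayers TGFB1 lowered 50 of them, against 7.79% of all tested genes, and the interaction test called the effect higher in spheroids for 44, against 8.72% of all tested genes. Mitochondrially encoded genes had 7 called higher of 13, with sums of 74842 to 83093 and 73869 to 162043. TGFB1 library 1 lay below the lowest untreated library, and the count was 13 without it, 0 without TGFB1 library 2 and 0 with the 6 spheroid libraries alone. Cytosolic ribosomal protein genes had 16 called lower and 1 higher of 81 (median -0.20), against 16.8% of all tested genes lower. The counts were 0 higher and 61 lower under equal column sums, 0 higher and 2 lower with the 6 spheroid libraries alone, 1 higher and 9 lower without untreated library 3 and 6 higher and 9 lower without TGFB1 library 1.

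Interferon response and antigen presentation genes fell in 16 of 28 tested cases, and 0 were called higher by limma (median -0.75), with 0 higher at an unadjusted p under 0.05. With the 6 spheroid libraries alone 5 were called lower, and without TGFB1 library 1 or 2, 10 and 8. Bst2, the surface tether tetherin, read 160.3, 168 and 123 in untreated and 31.1, 71.8 and 105 in TGFB1 spheroids (-1.26 ± 0.34, adjusted p = 0.015), a call lost with the 6 spheroid libraries alone (adjusted p = 0.083) and without untreated library 2 (0.050), and Irf1, an interferon-induced transcription factor, 30.5, 30.4 and 44.3 against 12.4, 6.23 and 16.0 (-1.59 ± 0.32, adjusted p = 0.0033). Genes that load peptides for presentation overlapped between groups: B2m, the light chain of MHC class I, had 1707, 1652 and 1135 against 649, 858 and 1178 (-0.76 ± 0.21, adjusted p = 0.015) and the peptide transporter Tap1 32.8, 29.2 and 11.9 against 3.80, 5.33 and 13.0 (-1.65 ± 0.40). In both, untreated library 3 was lowest of its group and below TGFB1 library 3. The call for B2m was lost with the 6 spheroid libraries alone (adjusted p = 0.092), without untreated library 1 (0.059) and without untreated library 2 (0.056), and that for Tap1 was lost with the 6 spheroid libraries alone (adjusted p = 0.069). Complement genes had 2 called higher and 6 lower of 16. Clu, the chaperone clusterin and the largest fall by difference of means, went from 3671, 3530.0 and 4429 to 356, 620.5 and 1431 (-2.500 ± 0.37, adjusted p = 6.0e-04), and Cd55, which dissolves complement convertases, from 188, 199.7 and 216 to 10.4, 17.4 and 87.0 (-2.93 ± 0.55, adjusted p = 0.0022). The C1 inhibitor gene Serping1 rose from 0.776, 0.779 and 0.221 to 2.30, 4.34 and 3.19 (1.42 ± 0.21, adjusted p = 6.2e-04).

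Inflammatory genes were divided, with 5 called higher and 7 lower of 22, and 6 higher and 4 lower without TGFB1 library 1 and 4 higher and 3 lower without TGFB1 library 2. Lcn2, the siderophore-binding lipocalin 2, rose from 9.16, 8.97 and 5.87 to 66.1, 355 and 488 (4.68 ± 0.56, adjusted p = 1.7e-04), and Nos2, inducible nitric oxide synthase, from 4.80, 3.92 and 1.57 to 8.83, 28.6 and 23.5 (2.20 ± 0.38, adjusted p = 0.0015). Vcam1, a leukocyte adhesion molecule that mesothelium carries, fell from 99.5, 97.6 and 121 to 22.5, 20.8 and 47.0 (-1.87 ± 0.24, adjusted p = 2.7e-04). Of 14 chemokines 1 was called higher and 2 lower (7.14% and 14.3%, against 18.8% and 16.8% of all tested genes). The riser was Cxcl14, 0.918, 1.29 and 2.89 against 106, 91.9 and 62.1 (5.06 ± 0.31, adjusted p = 1.3e-06). Ccl2, the monocyte chemokine, fell from 316, 333 and 339 to 63.5, 78.1 and 213 (-1.68 ± 0.34, adjusted p = 0.0034) and Cxcl12 from 13.2, 11.5 and 38.2 to 1.88, 0.445 and 3.82 (-2.81 ± 0.44, adjusted p = 9.0e-04). Prostaglandin genes had 6 higher and 2 lower of 16, and 3 higher and 2 lower under equal column sums. Ptgs1, cyclooxygenase 1, rose from 116, 114 and 172 to 520.0, 556 and 347 (1.81 ± 0.19, adjusted p = 7.2e-05), the receptor Ptger4 by 1.70 ± 0.15, and the synthase Ptgds fell from 73.9, 74.0 and 47.7 to 3.78, 0.741 and 25.04 (-3.43 ± 0.79, adjusted p = 0.0064). Slpi, a secreted antiprotease, and Chil1, a chitinase-like protein, rose, Slpi from 159, 176 and 132 to 826, 1627 and 1318 (2.96 ± 0.43) and Chil1 from 6.74, 5.85 and 6.24 to 572, 403 and 459 (6.03 ± 0.16, adjusted p = 3.6e-09).

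Mitosis genes were low in both groups and mostly higher after TGFB1. Of 26 tested, 17 were called higher and 0 lower by limma (median 0.58), with 0 lower at an unadjusted p under 0.05. The count of higher calls was 12 under equal column sums and 9 with the 6 spheroid libraries alone. Cenpa, the centromeric histone, read 3.89, 4.14 and 3.39 in untreated and 10.1, 12.7 and 11.8 in TGFB1 spheroids (1.38 ± 0.13, adjusted p = 3.6e-05), against 80.6, 57.2 and 74.1 in untreated monolayers, and Ccnb1, mitotic cyclin B1, 1.29, 1.45 and 1.94 against 2.68, 3.71 and 5.31 (0.91 ± 0.19). Cdk1 rose from 28.3, 35.4 and 36.4 to 44.8, 52.98 and 55.1 (0.60 ± 0.14). Every TGFB1 spheroid value of these 3 genes was below every monolayer value. DNA replication genes had 13 called higher and 3 lower of 39, but 5 higher and 6 lower under equal column sums and 7 higher and 3 lower without TGFB1 library 2. Ccne1, cyclin E1, rose from 2.55, 2.38 and 1.07 to 6.30, 20.1 and 9.65 (2.02 ± 0.33, adjusted p = 0.0011) and Tyms, thymidylate synthase, from 9.83, 8.65 and 21.4 to 55.9, 42.6 and 40.8 (1.82 ± 0.30, adjusted p = 0.0011). Cdkn1a, the p21 inhibitor, was not called (0.49 ± 0.25), except without TGFB1 library 1 (0.80, adjusted p = 0.0087) and with library quality weights. In the BCL2 family the BH3-only killers Bcl2l11, which encodes BIM, and Pmaip1, which encodes NOXA, rose by 1.47 ± 0.19 and 1.20 ± 0.19, and Bcl2l1, which encodes BCL-XL, fell from 233, 243 and 267 to 121, 131 and 161 (-0.85 ± 0.10, adjusted p = 1.7e-04). Bok, a BAX-like effector, fell from 12.3, 11.2 and 11.7 to 1.77, 1.99 and 5.69 (-1.74 ± 0.26, adjusted p = 6.4e-04).

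Immediate early factors changed in both directions, 5 called higher and 7 lower of 19, and 5 higher and 4 lower without TGFB1 library 1 and 4 higher and 3 lower without TGFB1 library 2. Within AP-1, Junb rose from 191, 235 and 269 to 621, 709 and 560.0 (1.45 ± 0.13, adjusted p = 2.6e-05) and Fosl1 from 2.13, 2.90 and 2.43 to 5.22, 9.81 and 6.28 (1.18 ± 0.24, adjusted p = 0.0032), while Fos fell from 31.3, 49.0 and 71.2 to 13.7, 6.23 and 11.6 (-2.15 ± 0.36, adjusted p = 0.0011). The groups did not overlap for any of the 3. Klf2, a Kruppel-like factor, fell from 155, 173 and 203 to 26.2, 14.9 and 54.2 (-2.62 ± 0.35, adjusted p = 3.2e-04). In the WNT pathway 8 were called higher and 6 lower of 27, and 7 higher and 1 lower with the 6 spheroid libraries alone. The ligands Wnt11 and Wnt7b rose, Wnt11 from 1.44, 1.44 and 1.15 to 18.7, 30.8 and 17.8 (3.28 ± 0.23, adjusted p = 4.4e-06) and Wnt7b from 5.93, 6.53 and 3.69 to 28.4, 93.9 and 45.9 (3.02 ± 0.40, adjusted p = 3.0e-04). The R-spondin Rspo3, which stabilises WNT receptors, rose from 1.58, 1.11 and 1.81 to 16.99, 28.1 and 18.8 (3.13 ± 0.20, adjusted p = 2.1e-06), its receptor Lgr6 by 2.81 ± 0.49 and the transcription factor Lef1 by 1.59 ± 0.19. The ligand Wnt6 fell from 99.95, 89.4 and 27.1 to 0.445, 0.690 and 25.2 (-3.99 ± 0.90, adjusted p = 0.0061), with TGFB1 library 3 just under untreated library 3, a call lost with the 6 spheroid libraries alone (adjusted p = 0.059), and Axin2, the common readout of beta-catenin, was not called (0.02 ± 0.15). In the NOTCH pathway 7 were called higher and 2 lower of 17. The ligand Jag1 rose from 9.88, 9.75 and 6.75 to 50.04, 62.8 and 36.2 (2.35 ± 0.36, adjusted p = 7.3e-04), the receptor Notch1 from 2.05, 1.78 and 2.93 to 14.1, 7.87 and 6.14 (1.62 ± 0.27) and the target Nrarp by 2.04 ± 0.27. The target Hes1 was not called (0.33 ± 0.13), except with the replicate number as a block and without TGFB1 library 3 (0.41, adjusted p = 0.050), and Dtx1 fell by 1.87 ± 0.27.

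**Figure D4:**
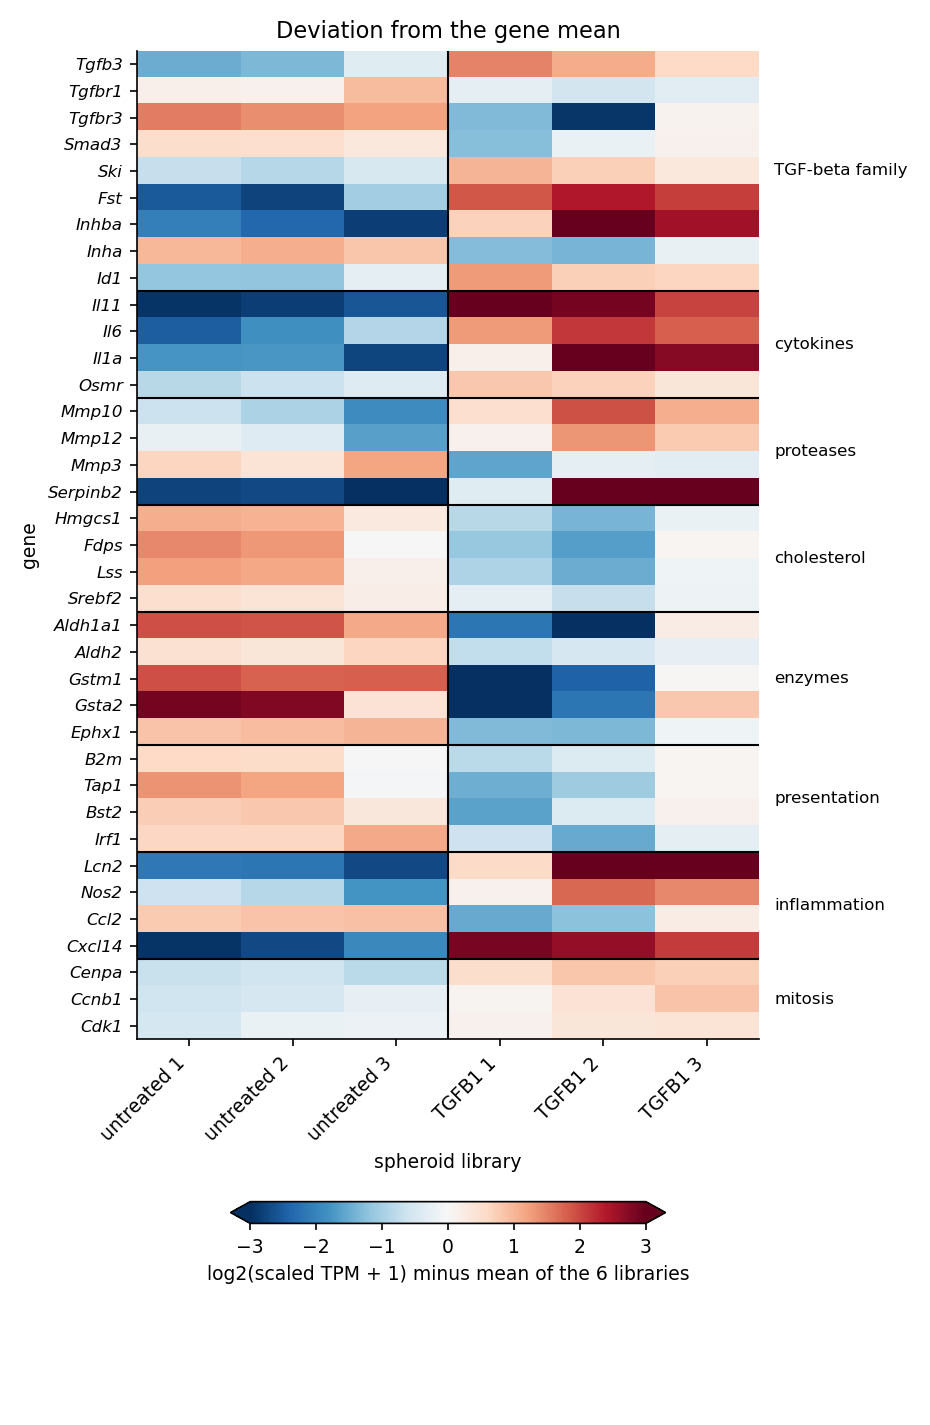
Each cell is the log2(scaled TPM + 1) of a gene in 1 spheroid library minus the gene's mean over the 6 libraries, on a scale that ends at 3 either way, for genes described in the text in the order of their roles. Lowered cholesterol, detoxifying and antigen presentation genes have TGFB1 library 3 nearest to the untreated ones, and Serpinb2, Inhba, Il1a and Lcn2 have TGFB1 library 1 nearest.

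The response in spheroids differed from that in monolayers for many genes. The TGFB1 effect in monolayers was called for 2284 genes (16.9%), and the difference of the effects for 2138 (15.8%), 1178 higher and 960 lower in spheroids. Equal column sums turned that split to 732 higher and 1903 lower, with a median of -0.21 over all genes, and the count was 1402 without untreated monolayer 3. Leaving out an untreated monolayer or TGFB1 monolayer 1 brought the monolayer count down to 1234 to 1351. Calls went the same way in both cultures for 572 raised and 375 lowered genes, and in opposite directions for 76 raised in spheroids and lowered in monolayers and 99 of the reverse. Slpi led the first kind, ranked by the smaller of the 2 changes: in monolayers it went from 245, 195 and 198 to 7.93, 32.0 and 32.3 (-3.31 ± 0.43). Prg4, the lubricating proteoglycan 4, fell in monolayers (-1.17 ± 0.17) and rose in spheroids, from 0.683, 0.703 and 0.637 to 23.9, 19.03 and 21.3 (3.74 ± 0.17). Abcb1a, the drug efflux pump P-glycoprotein, rose from 22.9997, 22.1 and 14.6 to 52.1, 84.3 and 68.3 in spheroids (1.73 ± 0.23) and fell from 16.2, 17.3 and 19.5 to 3.14, 5.62 and 5.32 in monolayers (-1.74 ± 0.23). Id4 belonged to the same group, and its relatives Id1 and Id3 had monolayer differences of -0.76 and -1.02 that were not called.

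Genes of the reverse kind were lowered in spheroids and raised in monolayers. Fbln5, the elastic fibre protein fibulin 5, fell from 6.46, 5.59 and 17.4 to 3.15, 1.90 and 2.95 in spheroids (-1.42 ± 0.31), while in monolayers it rose from 289, 300.2 and 332 to 1049.6, 1037 and 953 (1.72 ± 0.31). Its spheroid call was lost with the 6 spheroid libraries alone (adjusted p = 0.055). Gdf6 read 7.74, 8.35 and 8.97 against 2.79, 1.39 and 4.26 in spheroids and 13.2, 9.71 and 15.2 against 132, 82.3 and 72.5 in monolayers (2.79 ± 0.29). Spry1, named above, rose by 1.15 ± 0.30 in monolayers, and Lipg, endothelial lipase, fell by 1.74 ± 0.27 in spheroids and rose by 1.11 ± 0.27 in monolayers. Among genes that changed in spheroids and stayed low in monolayers, the water channel Aqp1 went from 0.251, 0.0392 and 0.143 to 322, 72.6 and 42.0 (6.46 ± 0.54, adjusted p = 1.5e-05) and the serine protease Prss42 from 0.0399, 0.137 and 0.214 to 167, 90.5 and 51.0 (6.36 ± 0.32, adjusted p = 3.4e-07), against at most 0.468 and 0.252 in any monolayer. Akr1cl, an aldo-keto reductase, fell from 571, 597 and 475 to 10.3, 10.8 and 239.9 (-4.10 ± 0.89), a call lost with the 6 spheroid libraries alone (adjusted p = 0.053), and was at most 1.58 in monolayers. Spink4, a serine protease inhibitor, fell from 104, 98.7 and 148 to 3.19, 4.44 and 22.4 (-3.84 ± 0.59, adjusted p = 7.8e-04).

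**Figure D5:**
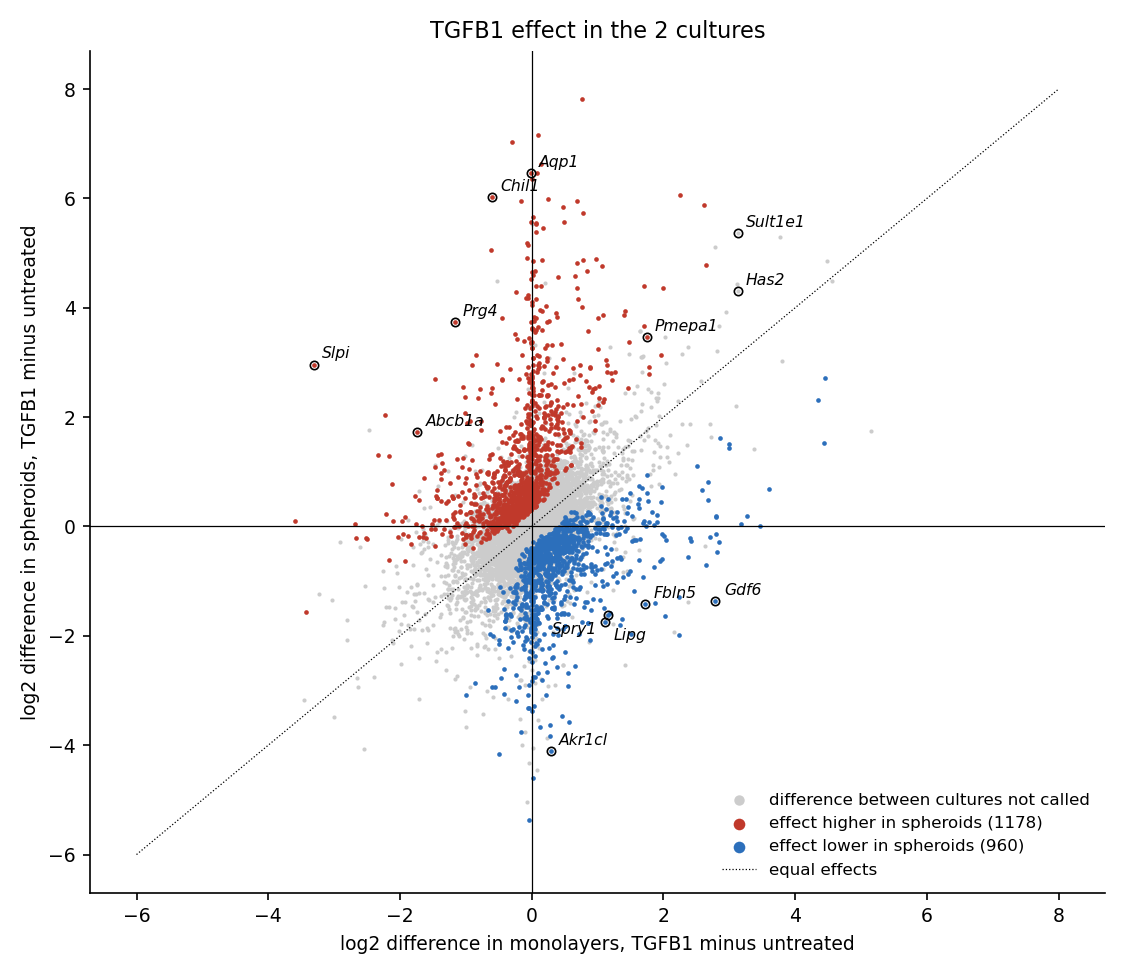
Each point is 1 tested gene, with its TGFB1 minus untreated log2 difference in monolayers on the x axis and in spheroids on the y axis. Colour marks the 2138 genes for which the difference between the cultures was called, and labels mark genes named in the text, with Slpi and Prg4 at the upper left and Gdf6 and Fbln5 at the lower right.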

How the data were processed

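RNA was extracted with RNeasy columns and poly(A)-selected libraries were made with a directional NEBNext kit, per the labels' protocols. The authors deposited 1 table of signal per gene, a TPM matrix per its name, called scaled TPM here. The submitters' processing notes name kallisto 0.44.0, sleuth 0.30.0 and the build GRCm38, without saying which made the table. Column sums of 955433 to 1166749, where plain TPM would sum to 1000000, show a factor per library that is not given in the sources used here. The table holds no reads, so depth is unknown and a count test was not run. A gene at 0 may be a failed estimate. A second table, deposited by the authors, holds coefficients, read as natural log values; they were divided by the natural log of 2 and only their signs were used.

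Genes with at least 1 scaled TPM in at least 3 of 12 libraries (13509 of 35687) entered a fit by limma (3.58.1, R 4.3.3) to log2(scaled TPM + 1), with 4 group means, a trended prior and Benjamini-Hochberg adjustment of two-sided p-values. The pseudocount shrinks fold changes of low genes. The spread is shared by both cultures. The difference between cultures is the interaction term of that fit. On simulated data with 100 genes changed 2-fold and 100 changed 4-fold among 13044, the spheroid comparison recovered 86% and 98%, with 4.17% of calls false, and the interaction 71% and 94%, with 3.51% false. The simulation gave each gene the same spread in all libraries and left all other genes unchanged. Its shares therefore do not show the error where spread differs between cultures or libraries, or where many genes change.

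Members and gene lists were chosen with earlier results of these data known. Genes named are list members, the 15 largest log2 changes each way (groups not overlapping, higher mean of at least 20), the 15 largest differences of means each way, the 10 largest interactions each way, and up to 10 genes each way with opposite calls in the cultures. The 422 symbols on several identifiers, 378 of them with identical values, were left out of lists. Some list members and named genes are not reported here. Identifiers matched GENCODE M21 for 98.2%. Promoters came from RefSeq (GRCm38.p6), which matched 9521 of 13179 tested genes with a unique symbol. Processing alternatives were the pseudocount, the filter on low values, the scaling, a replicate block, library quality weights, the libraries in the fit, and each library left out.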

Additional observations from a re-analysis of the deposited data

Results flagged for a closer look

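The TGFB1 effect in spheroids differed from the effect in monolayers for 2138 genes by the interaction term of the limma fit (adjusted p under 0.05), and culture cannot be told apart from the origin of the libraries. The values below are the effect in spheroids minus the effect in monolayers, on the log2 scale, ± SE. Groups of 3 libraries were too small for a test of single outlying libraries.

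The effect was higher in spheroids than in monolayers for genes of several kinds. The interleukin 6 family member Il11 differed by 5.07 ± 0.44 (adjusted p = 5.2e-05) and the interleukin 1 ligand Il1a by 4.26 ± 0.90 (adjusted p = 0.0099). The plasminogen activator inhibitor Serpinb2 differed by 6.49 ± 1.67 (adjusted p = 0.025), with its low TGFB1 spheroid library 1 in the fit. Chil1, a secreted chitinase-like protein, differed by 6.64 ± 0.22 (adjusted p = 1.1e-07), the water channel Aqp1 by 6.48 ± 0.77 (adjusted p = 4.8e-04), the serine protease gene Prss42 by 6.36 ± 0.45 (adjusted p = 1.2e-05) and the troponin gene Tnni1 by 6.11 ± 0.71 (adjusted p = 4.4e-04). The WNT amplifier Rspo3 differed by 3.98 ± 0.29 (adjusted p = 1.3e-05) and Id4 by 2.69 ± 0.43 (adjusted p = 0.0023).

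For the protease inhibitor Slpi the difference was 6.27 ± 0.61 (adjusted p = 1.3e-04), for the drug efflux pump Abcb1a 3.47 ± 0.32 (adjusted p = 9.2e-05) and for the lubricating proteoglycan Prg4 4.91 ± 0.24 (adjusted p = 1.1e-06). These 3 were called lower in monolayers and higher in spheroids. So were Chil1 and Id4, named above, with monolayer effects of -0.61 ± 0.16 and -1.37 ± 0.30.

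The effect was lower in spheroids than in monolayers for the reductase gene Akr1cl at -4.39 ± 1.27 (adjusted p = 0.039), the BMP family ligand Gdf6 at -4.16 ± 0.40 (adjusted p = 1.2e-04) and Spink4, of the Kazal-type inhibitor family, at -4.11 ± 0.84 (adjusted p = 0.0083). Akr1cl was at most 1.58 scaled TPM in monolayers and had little room to fall there. Its difference thus largely repeats its fall in spheroids. The monolayer effects of Akr1cl and Spink4 were not called (0.29 and 0.27). The elastic fibre protein Fbln5 differed by -3.14 ± 0.43 (adjusted p = 0.0011), the ERK inhibitor Spry1 by -2.77 ± 0.43 (adjusted p = 0.0020), the endothelial lipase Lipg by -2.85 ± 0.39 (adjusted p = 9.8e-04), the basement membrane proteoglycan Hspg2 by -2.26 ± 0.29 (adjusted p = 6.8e-04) and the collagen chain Col1a1 by -2.04 ± 0.26 (adjusted p = 7.3e-04). Untreated means of Col1a1 were 0.67 in spheroids and 6.59 in monolayers. The pseudocount therefore shrank its spheroid effect more, which widened this difference.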

How the results depend on the processing

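The count of 4810 genes in spheroids went down to 2769 when only the 6 spheroid libraries entered the fit. There fewer samples estimate each spread, and the monolayers, whose libraries correlated more closely within groups, do not share it. Other settings with all 12 libraries gave 4160 to 5338, and leaving out 1 library gave 3295 to 4944. Equal column sums moved the share of calls that were higher from 52.9% to 29.8%, and in the interaction from 55.1% to 27.8% (732 higher and 1903 lower). With library quality weights the interaction count went from 2138 to 4385 and the monolayer count from 2284 to 6431; the cause was not tested. Leaving out 1 library gave 1402 to 2741 genes in the interaction, lowest without untreated monolayer 3, and 1234 to 2818 in monolayers. The monolayer count fell by over 1.5 times without untreated monolayer 1 (1293), 2 (1351) or 3 (1234) or TGFB1 monolayer 1 (1294).

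Libraries of the 2 groups share only replicate numbers. Deviations of same-numbered untreated and TGFB1 spheroids correlated at -0.248, 0.083 and -0.320 across genes, and apart from TGFB1 library 2 no library correlated best with its own number. With the replicate block, 4472 genes were called in spheroids, 1827 in the interaction and 1994 in monolayers.

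Of 245 named genes tested, 219 were called in spheroids, 189 of these under every alternative in which they were tested. With the filter at 5 scaled TPM only 223 of the named genes were tested. No named gene reversed. With only the 6 spheroid libraries 26 lost the call, and without TGFB1 library 2 12 did. The number of lists with a median above 0 stayed within 1.5 times of 33. Single lists still changed sign. Under equal column sums the median of nuclear respiratory chain genes went from 0.09 to -0.096. That of noncollagen matrix genes went from 0.04 to -0.15 and that of stem cell markers from 0.02 to -0.15. Depth cannot be judged from scaled TPM, so values near 0 carry no floor.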

Other observations

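Members of other gene groups were called too, against a background in spheroids of 18.8% higher and 16.8% lower over all tested genes. Of the S100 calcium-binding proteins, 5 were called higher and 1 lower of 12. S100a8, a subunit of calprotectin, read 2.73, 0.940 and 0.668 scaled TPM in untreated and 19.6, 850.3 and 479.8 in TGFB1 spheroids (6.47 ± 1.05, adjusted p = 0.0010), with treated library 1 far below the other two. S100a4 fell from 56.6, 63.7 and 159 to 34.1, 17.01 and 31.7 (-1.62 ± 0.38). Of stem cell markers, 9 were called higher and 5 lower of 19; the adhesion molecule Alcam rose from 97.5, 78.5 and 108 to 475, 443 and 262 (2.01 ± 0.19), and the groups lay well apart. Of YAP and TEAD target genes, 8 were called higher and 3 lower of 27 (6 higher and 5 lower under equal column sums). Ankrd1, a stretch-responsive YAP target, rose from 1.66, 2.19 and 0.474 to 6.59, 50.6 and 28.9 (3.29 ± 0.57) and the transcription factor Tead2 from 18.8, 23.6 and 21.6 to 68.8, 62.9 and 49.6 (1.45 ± 0.13).

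Among IGF genes, 1 was called higher and 4 lower of 15. The higher one, Igf2bp1 (1.73 ± 0.20), and one of the lower, Igf2bp3 (-1.07 ± 0.23), encode RNA-binding proteins of IGF2 messenger RNA. Igfbp3, a binding protein that carries IGF, fell from 361, 489.7 and 281 to 56.8, 40.3 and 219 (-2.19 ± 0.51), a call lost with the 6 spheroid libraries alone (adjusted p = 0.051). Lysosome genes had shares near those of all tested genes, with 5 higher and 8 lower of 39 (3 higher and 15 lower under equal column sums): the protease cathepsin F, Ctsf, rose from 0.655, 1.02 and 0.307 to 24.4, 30.3 and 16.2 (3.87 ± 0.25), and cathepsin H, Ctsh, fell from 14.9, 12.6 and 10.5 to 0.607, 1.13 and 3.93 (-2.40 ± 0.34). Of antioxidant NRF2 targets, 3 were called higher and 9 lower of 24, and 1 higher and 5 lower with the 6 spheroid libraries alone. Nfe2l2, which encodes NRF2, fell by 0.53 ± 0.13 in spheroids and was also called lower in monolayers (-0.45 ± 0.13). Fatty acid synthesis genes had 4 higher and 6 lower of 22, and 4 higher and 11 lower without untreated library 3; Dgat2, which makes triglyceride, rose from 4.08, 5.45 and 2.98 to 21.99, 37.6 and 31.6 (2.60 ± 0.22), and Acly, which makes cytosolic acetyl-CoA, fell from 156, 153 and 119.8 to 83.1, 72.4 and 101 (-0.74 ± 0.13). Cholesterol efflux genes had 1 higher and 2 lower of 11.

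Of p53 target genes, 3 were called higher and 4 lower of 20, also near those shares, and 6 higher and 3 lower without TGFB1 library 1. Phlda3, an inhibitor of AKT, rose from 44.5, 50.4 and 60.2 to 234, 273 and 167 (2.08 ± 0.16). Integrated stress response genes had 4 higher and 1 lower of 24. Among them Nupr1, a stress-induced nuclear protein, rose in both cultures (1.88 ± 0.32 in spheroids, 2.28 ± 0.32 in monolayers), and the transcription factor Cebpb rose in spheroids (1.22 ± 0.27) and fell in monolayers (-0.90 ± 0.27; interaction adjusted p = 0.0046). G1 cyclins and CDK inhibitors had 5 higher and 3 lower of 21 (2 higher and 6 lower under equal column sums), and the retinoblastoma gene Rb1 rose by 0.70 ± 0.16. In the authors' deposited table of coefficients, 4598 of 4598 called genes with a coefficient had the same sign for the spheroid effect. For the interaction 1975 of 1977 did. The coefficients are for the same cultures of this series and only genes called here were compared. Agreement of sign was thus largely fixed in advance and is no independent check.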
